A study of Mus musculus with 151 samples.

Results

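Oocytes were compared with the cumulus cells that surround them, both from naturally conceived (Natural) female mice at 12 weeks of age. Members were chosen by their labels: 41 of the 151 libraries of the series, made up of 36 single oocytes and 5 pools of cumulus cells. The Natural females came from CF-1 females mated to B6/SJL males, were delivered by c-section and were raised by foster mothers. The females of both cell types had been superovulated with eCG and then hCG, and the cumulus-oocyte complexes were taken apart with hyaluronidase, so every library is from a hormone-stimulated ovulation and there was no unstimulated group. The oocytes fell by their names into 5 library sets of 8, 8, 5, 8 and 7 cells, which were summed and are called oocyte sets 1 to 5, and the pools are called cumulus pools 1 to 5. Cumulus pools 3 and 4 share their names with oocyte sets 2 and 5, and the name of cumulus pool 5 is otherwise used for IVF oocytes although its label is Natural. No source used here says which libraries came from separate females, so p-values measure only the spread between these libraries, which may be technical. For 1 comparison, the 40 single oocytes and 5 cumulus pools of IVF-conceived females of the same cross and age were added, whose embryos had been fertilized and cultured in vitro and transferred at the blastocyst stage.

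The oocyte grows inside the follicle in contact with granulosa cells, and the granulosa cells nearest to it become the cumulus. The oocyte makes the egg coat, stores the mRNAs and proteins that carry the embryo through its first divisions, and secretes growth factors that act on the cumulus cells. The cumulus cells pass pyruvate, amino acids and cyclic nucleotides to the oocyte through gap junctions, break down glucose and make cholesterol on its behalf, and after the ovulatory signal expand by laying down a hyaluronan-rich matrix and begin to make progesterone.

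The deposited table held gene counts from polyadenylated RNA. Total counts were 19624072 to 58259515 per oocyte set, 839781 to 10879166 per single oocyte and 4081172 to 6138018 per cumulus pool. Levels are given as CPM, counts per 1000000 of the scaled library total for the sets and pools, and for single oocytes as CPM of the plain total. They are shares of the RNA sequenced, so fewer cells of a type and less RNA per cell cannot be told apart, and the amount of RNA in an oocyte was not measured. The length of poly(A) tails was not measured either. For any gene, less mRNA and mRNA with shorter tails therefore cannot be told apart. Across 12867 genes the oocyte sets correlated with each other at Pearson's r of 0.952 to 0.972, the cumulus pools at 0.915 to 0.951, and an oocyte set with a cumulus pool at 0.0451 to 0.225. Of the 12 oocyte markers, all were higher in the oocytes, and their summed level was 27016 to 34597 CPM in the sets against 1.19 to 19.4 CPM in the pools. Of the 12 cumulus markers, 10 were tested, and 8 of them were higher in the cumulus cells (summed level 3035 to 5610 CPM against 57.6 to 138 CPM in the sets). The exceptions were Kitl, which was higher in the oocytes, and Nr5a2, which did not pass the test. The defining markers Has2 and Amh were too low in these pools to be tested.

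Of the 36 oocytes, 4 stood apart from the rest: 2 in oocyte set 2, 1 in set 4 and 1 in set 5. Their median correlation with the other oocytes was 0.429 to 0.579, against 0.908 to 0.948 in the other 32. Gdf9 was 109 to 269 CPM in the 4 and 11362 to 19609 CPM in the 32, and the oocyte linker histone H1foo was 74.1 to 256 against 11886 to 20164 CPM. Wee2, a kinase that restrains Cdk1 in the egg, ran the other way at 1686 to 2349 against 770.2 to 1169 CPM, as did Omt2a at 4012 to 11408 against 1175 to 2043 CPM. The cumulus genes Gja1, at 0 to 8.82 CPM, and Ldha, at 5.03 to 45.3 CPM, lay within the range of the other oocytes (0 to 225 and 0 to 360.4 CPM). Mitochondrially encoded genes took 0.447 to 3.68% of counts in the 4 and 0.202 to 0.788% in the 32. These values are a description, since the 4 were picked on their expression. They stay in the sets below, and the counts of genes are also given without them. Among the pools, numbers 1 and 2, which are named in another style, correlated at 0.951 with each other and at 0.915 to 0.92 with pools 3 to 5. Of the 11139 genes that differed between the 2 cell types, 10675 passed in the same direction without pools 1 and 2, and 10928 without pool 5.

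Most of the transcriptome differed between the 2 cell types. By edgeR's quasi-likelihood test with Benjamini-Hochberg adjustment over 12867 genes, 6377 genes (49.6%) were higher in oocytes and 4762 (37%) were lower at an adjusted p below 0.05, and these shares are the background for every gene group below. The number of genes that differed by more than 2-fold was 5574 higher (43.3%) and 4096 lower (31.8%), by edgeR's test against that fold. For 10198 genes (79.3%) the 5 sets and the 5 pools did not overlap. Without the 4 oocytes that stood apart, 6081 genes were higher and 5073 lower, and 10819 of the 11099 genes that passed before and could be tested again passed in the same direction. The balance of the directions changed with the scaling, with depth and with the summing of oocytes. The median log2 difference (oocyte minus cumulus) over all genes was 0.68 as fitted, -0.20 on plain totals and -0.50 with upper quartile scaling, where 44.5% of the genes that passed were higher in oocytes instead of 57.2%. The median was -0.066 with all libraries thinned to the lowest total (10867 genes tested, 49.3% of those that passed higher in oocytes). It was 0.017 with every oocyte thinned to the lowest oocyte total, and 6.8e-05 with 36 single oocytes as samples. The value of 0.68 therefore belongs to this fit, and a log2 difference from this fit is best read against it. Of the 11139 genes that passed, 551 changed sign under upper quartile scaling and 111 of these passed the test in the other direction. At 100 CPM or more, 1800 genes were found in oocytes and 698 in cumulus cells, of which 182 were in both. There were 20 genes at 100 CPM or more in oocytes with no count in any pool, and 0 genes with the reverse pattern. These 2 numbers were not measured alike. Totals were 19624072 to 58259515 counts per oocyte set and 4081172 to 6138018 per pool, so an absence of counts was harder to reach in the sets. The difference between 20 and 0 therefore does not show which cell type has more genes of its own.

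**Figure D1:**
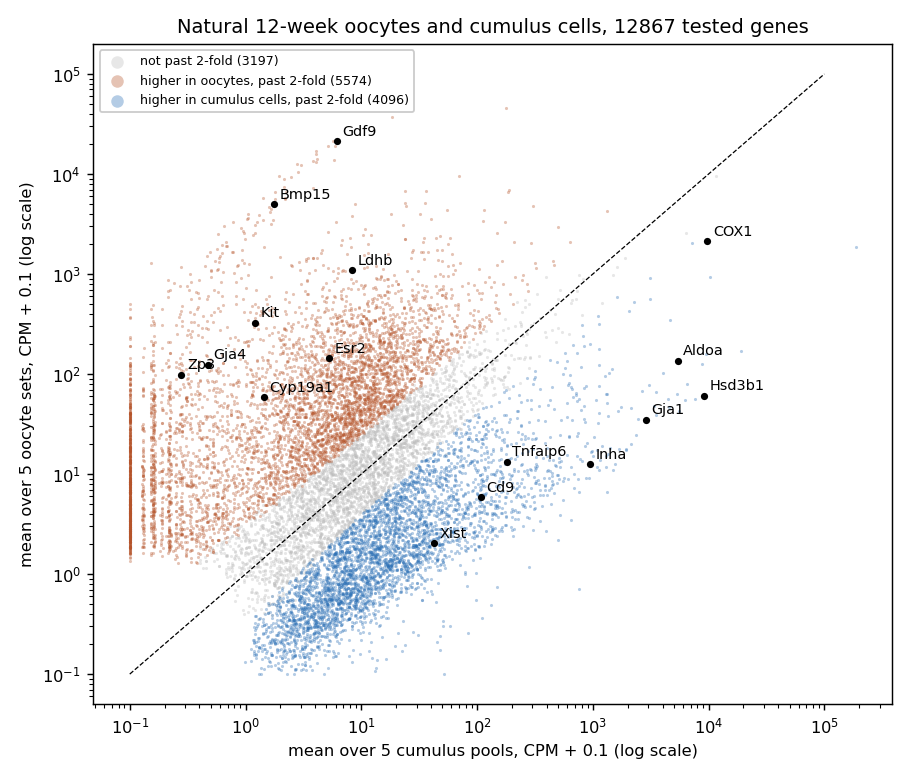
Mean level of each of 12867 tested genes in the 5 cumulus pools (horizontal axis) and the 5 oocyte sets (vertical axis), in CPM + 0.1 on log axes, with a dashed line of equal levels. Red-brown marks the 5574 genes higher in oocytes by more than 2-fold, blue the 4096 higher in cumulus cells and grey the rest, and the named genes are those given in the text.

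The cumulus library was the more concentrated of the 2. The 10 most counted genes took 38 ± 5.16% of the counts in the pools and 16.5 ± 0.756% in the oocyte sets (SD, n = 5 each; exact two-sided permutation test, p = 0.00794, the smallest that 5 against 5 allows, and 0.00907 after adjustment over 8 measures). Spp1, which encodes the secreted matrix protein osteopontin, alone took 24.6% of the cumulus counts (14.2 to 32.6%). Its level was 167523, 179559, 269007, 86983 and 237154 CPM in cumulus pools 1 to 5 and 897, 497, 3144, 709 and 3983 CPM in oocyte sets 1 to 5 (log2 difference -6.67, SE 0.82, adjusted p = 3.16e-06). After it came Actb, the cytoplasmic actin, at 2.57%, the uncharacterised LOC101056014 at 1.6% (0.126 to 3.67%), the syndecan Sdc1 at 1.37%, the mitochondrially encoded COX1 at 1.33%, the nuclear RNA Malat1 at 1.3%, the steroid enzyme gene Hsd3b1 at 1.23% and the NADPH-producing enzyme gene Idh1 at 1.19%. No oocyte gene dominated in that way. Spin1, which encodes a reader of histone methylation, led with 3.34% (3.01 to 3.57%), followed by Zbed3 at 2.71%, H1foo and Gdf9 at 1.56% each, and Obox5 at 1.4%. These genes were taken by their rank among the counts and not by the naming rule.

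The egg coat genes were higher in oocytes throughout. Of 7 tested members, 7 were higher in oocytes and 0 lower, with a median log2 difference of 11.65 (9.88 with the 2 members that had no count in any pool set at their lower bound). Zp3, which encodes a sperm-binding glycoprotein of the zona pellucida, was at 119, 86.7, 109, 97.7 and 81.4 CPM in oocyte sets 1 to 5 and at 0, 0.298, 0, 0.601 and 0 CPM in cumulus pools 1 to 5 (log2 difference 9.06, SE 0.52, adjusted p = 1.73e-09). Zp1, which cross-links the zona filaments, was at 118 ± 13.4 CPM in oocytes and 0.114 ± 0.156 CPM in cumulus cells (SD, n = 5), and Zp2, the gene for the glycoprotein cleaved after fertilization, at 107 ± 11.4 CPM in oocytes and 0.189 ± 0.285 CPM in cumulus cells. All 3 were higher in every set than in any pool. Levels per kilobase of exon were higher for 2 oocyte secreted protein genes than for the zona genes in these ovulated oocytes. Oosp1 was at 1978 and Oosp3 at 1444 CPM per kilobase, against 59.6, 39.4 and 74.7 for Zp1, Zp2 and Zp3. Exon length can differ from transcript length, so these values are approximate. Oosp2, of the same family, was lower, at 81.9 CPM in oocytes with no count in any pool. Umodl1, at 361 ± 63.1 CPM in oocytes, had no count in any pool and was at least 3978-fold higher in oocytes, taking 3 counts over the pools as the floor.

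Of the 5 genes for oocyte-secreted growth factors, 4 were higher in oocytes, with a median log2 difference of 10.16. Gdf9, the oocyte factor that drives cumulus growth and expansion, was at 22255, 18876, 23418, 22649.9 and 18504 CPM in the sets and 0.16, 0.298, 8.06, 11.4 and 10.1 CPM in the pools (log2 difference 11.78, SE 1.05, adjusted p = 1.24e-07). Its partner Bmp15 was at 6084, 4776, 5069, 4981 and 3964 CPM in the sets and 0, 0, 2.95, 1.35 and 3.98 CPM in the pools (log2 difference 11.53, SE 0.88, adjusted p = 2.7e-08). For both, the lowest set was far above the highest pool, and the pools split, with Gdf9 at 0.16 and 0.298 CPM in pools 1 and 2 and 8 to 11 CPM in pools 3 to 5. Tgfb2, another member of that superfamily, was at 829 ± 65.6 CPM in oocytes and 0.721 ± 0.699 CPM in cumulus cells. Fgf8, which acts with Bmp15 on cumulus glycolysis, was low, at 4.11 ± 1.19 CPM in oocytes with no count in any pool, and so at least 43-fold higher.

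The promoters of Bmp15 and Zp3 are shown because both genes had counts in 36 of 36 single oocytes and were near 0 in every pool. Each runs from 250 bases before to 50 bases after the start site (RefSeq, GRCm38.p6), Bmp15 at chrX:6320675-6320974, minus strand, and Zp3 at chr5:135979855-135980154, plus strand. Capitals mark TATAAA and the E-box CANNTG, the motif read by basic helix-loop-helix factors, on either strand.
Bmp15: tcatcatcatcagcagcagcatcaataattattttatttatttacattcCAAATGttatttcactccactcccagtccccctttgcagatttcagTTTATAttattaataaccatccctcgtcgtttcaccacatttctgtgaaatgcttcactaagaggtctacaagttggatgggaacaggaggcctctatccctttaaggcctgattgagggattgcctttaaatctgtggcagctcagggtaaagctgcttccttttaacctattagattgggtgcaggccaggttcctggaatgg
Zp3: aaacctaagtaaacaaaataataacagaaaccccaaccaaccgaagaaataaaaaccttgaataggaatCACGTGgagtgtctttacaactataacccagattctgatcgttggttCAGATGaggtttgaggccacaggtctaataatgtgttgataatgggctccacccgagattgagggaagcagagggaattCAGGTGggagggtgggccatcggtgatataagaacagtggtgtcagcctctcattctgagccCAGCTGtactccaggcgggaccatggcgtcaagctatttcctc
The Zp3 window held 4 E-boxes and no TATAAA, and that of Bmp15 held 1 of each. An E-box was in 72.3% of all 32851 promoters of this length in the table, in 65.2% of those of genes higher in oocytes and in 64.8% of those of genes lower in oocytes. TATAAA was in 13.6%, 7.03% and 8.09%.

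The receptors and signal carriers for these ligands were found on both sides. Of 16 tested, 12 were higher in oocytes, 2 were lower and 2 did not pass (median log2 difference 1.77). Bmpr1b, a type I receptor of the BMP pathway, was at 352, 253, 310.2, 257 and 249 CPM in the sets and 19, 13.2, 28.9, 20.4 and 21.9 CPM in the pools (log2 difference 3.78, SE 0.24, adjusted p = 5.54e-09). Tgfbr1, the type I receptor that carries the Gdf9 signal, was the other way round, at 40.4, 20.2, 22.3, 33.3 and 34.6 CPM in the sets and 119.8, 158, 391, 262 and 276 CPM in the pools (log2 difference -3.00, SE 0.34, adjusted p = 1.29e-06). Neither gene's groups overlapped. The inhibitory Smad7, at 0.226 against 5.12 CPM, was likewise lower in oocytes (log2 difference -4.41), whereas Smad3, which relays activin and Gdf9 signals, was at 434 ± 28.8 CPM in oocytes and 7.99 ± 2.77 CPM in cumulus cells and Fgfr2, a receptor for fibroblast growth factors, at 75.5 against 1.46 CPM (log2 differences 5.76 and 5.67). Bmpr2, the type II receptor that binds both Gdf9 and Bmp15, was at 90.6 ± 10.4 CPM in oocytes and 40.3 ± 8.92 CPM in cumulus cells (log2 difference 1.17, adjusted p = 6.56e-05), a difference that went to -0.01 under upper quartile scaling.

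The 2 cells also signal through Kit ligand and its receptor. Kit, the receptor on the oocyte, was at 389.9, 299, 297, 369 and 279 CPM in the sets and 1.28, 0.595, 1.61, 1.8 and 0.306 CPM in the pools (log2 difference 8.17, SE 0.39, adjusted p = 4.88e-10). Kitl, the ligand that granulosa cells make, was low in the pools, at 0, 0.298, 1.34, 2.1 and 0.919 CPM, and stood at 12.1, 12.7, 10.5, 9.98 and 11.6 CPM in the sets (log2 difference 3.58, SE 0.53, adjusted p = 2.2e-05). Kitl was fixed as a cumulus marker and lay above every pool in every set, so it ran against its label.

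**Figure D2:**
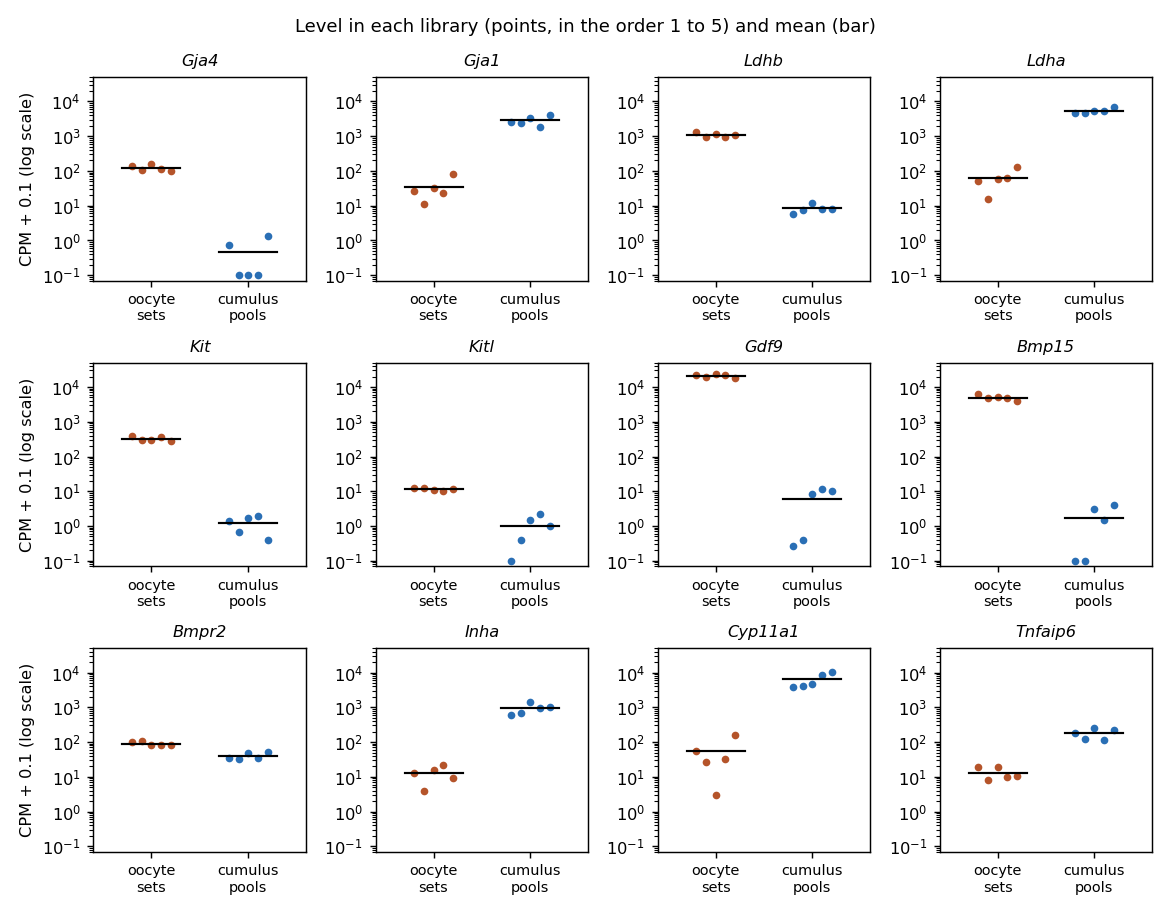
Level (CPM + 0.1, log axis) of 12 genes in oocyte sets 1 to 5 (red-brown) and cumulus pools 1 to 5 (blue), 1 point a library with the mean as a bar. Gja4, Ldhb, Kit, Kitl, Gdf9, Bmp15 and Bmpr2 lie higher in every oocyte set than in any pool, and Gja1, Ldha, Inha, Cyp11a1 and Tnfaip6 lie higher in every pool.

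Gap junctions between the 2 cells are built from connexins, and the 2 main connexin genes were split between them. Gja4, which encodes connexin 37 on the oocyte side, was at 143, 104, 155, 115 and 101 CPM in the sets and 0.64, 0, 0, 0 and 1.23 CPM in the pools (log2 difference 8.40, SE 0.62, adjusted p = 1.8e-08). Gja1, which encodes connexin 43 between cumulus cells, was at 26.6, 11.1, 32.5, 23.4 and 80.0 CPM in the sets and 2541, 2459.8, 3387, 1842 and 4143 CPM in the pools (log2 difference -6.37, SE 0.55, adjusted p = 8.64e-08). Per kilobase of exon, Gja4 was at 73.4 in oocytes and Gja1 at 280.3 in cumulus cells. These 2 values are approximate, since exon length can differ from the length of the transcript sequenced. Of the 4 connexins tested, 3 were higher in oocytes and 1 lower (median log2 difference 4.14). Those left were Gjc1, at 2.48 against 0.429 CPM, and Gjb2, whose 2 counts over all pools give a ratio of 59.9 (95% counting interval 16.5 to 496).

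The 2 promoters are shown because their genes were split cleanly between the 2 cells (RefSeq, GRCm38.p6, from 250 bases before to 50 after the start), Gja4 at chr4:127313990-127314289, minus strand, and Gja1 at chr10:56377050-56377349, plus strand. Capitals mark GGGCGG, the GC box, on either strand.
Gja4: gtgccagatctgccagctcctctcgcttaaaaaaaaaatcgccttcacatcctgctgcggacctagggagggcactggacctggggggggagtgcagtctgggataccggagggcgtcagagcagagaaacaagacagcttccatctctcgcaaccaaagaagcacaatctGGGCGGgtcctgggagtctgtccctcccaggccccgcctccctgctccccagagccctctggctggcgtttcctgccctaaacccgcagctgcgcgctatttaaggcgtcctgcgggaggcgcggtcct
Gja1: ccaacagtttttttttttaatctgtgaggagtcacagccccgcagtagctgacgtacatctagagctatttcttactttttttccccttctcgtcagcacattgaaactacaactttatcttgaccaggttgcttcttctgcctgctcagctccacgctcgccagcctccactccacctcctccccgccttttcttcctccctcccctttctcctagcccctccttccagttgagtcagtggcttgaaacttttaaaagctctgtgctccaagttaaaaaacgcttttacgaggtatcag
Gja4 had 1 GC box, 79 bases before the start, and none was in the Gja1 window. The GC box was in 35.7% of all promoters in the table, in 59.6% of those of genes higher in oocytes and in 64.1% of those of genes lower in oocytes.

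The adhesion genes were mostly higher on the oocyte side. Of 7 cadherins and catenins, 5 were higher, 1 was lower and 1 did not pass (median log2 difference 2.31). The lower one was Nectin2, a nectin gene, at 2.36 against 37.8 CPM. The one that did not pass was Cdh2, N-cadherin, at 23.5 CPM in oocytes and 18.3 CPM in cumulus cells (log2 difference 0.36). Cdh1, E-cadherin, was at 724, 475, 620.0, 646 and 518 CPM in the sets and 0.32, 0.595, 0.806, 0.3 and 0.613 CPM in the pools (log2 difference 10.11, SE 0.34, adjusted p = 2.43e-10). Its cytoplasmic partner Ctnnb1, beta-catenin, was at 1349.5 ± 260.2 CPM in oocytes and 164 ± 64.8 CPM in cumulus cells (log2 difference 3.04).

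The genes that hold the oocyte in meiotic arrest through cGMP and cAMP went both ways. Of 13 tested, 5 were higher in oocytes, 7 lower and 1 did not pass (median log2 difference -0.70, which changed sign with the setting). Pde3a, the oocyte phosphodiesterase that breaks down cAMP, was at 322, 279, 289, 321 and 297 CPM in the sets and 0, 0, 0, 0.601 and 0.306 CPM in the pools (log2 difference 10.67, SE 0.52, adjusted p = 5.87e-10). Gpr3, the receptor that keeps cAMP high, was at 54.8 ± 15.2 CPM in oocytes with 2 counts over all pools, a ratio of 941 (95% counting interval 261 to 7774). Adcy3, an adenylyl cyclase gene, was lower in oocytes, at 1.06 against 15.1 CPM (log2 difference -3.81). Among the genes of cGMP, Npr2, the guanylyl cyclase that answers the granulosa peptide, was at 0, 0, 0.851, 0.234 and 0.803 CPM in the sets and 9.76, 5.36, 6.04, 11.4 and 5.97 CPM in the pools (log2 difference -4.43, SE 0.86, adjusted p = 0.000252), and Impdh2, which supplies guanine nucleotides, was at 1 against 18.7 CPM (log2 difference -4.23). Prkg1, a cGMP-dependent kinase, was at 17 ± 3.29 CPM in oocytes with no count in the pools, at least 186-fold higher. The peptide's own gene, Nppc, was too low in both to be tested.

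The EGF-like factors pass on the ovulatory signal within the follicle, and their genes went both ways. Of 7 tested, 3 were higher in oocytes, 3 lower and 1 did not pass (median log2 difference 0.66, which changed sign with the setting). Hbegf, the ligand with the widest difference, was at 17.3 ± 2.92 CPM in oocytes and 0.0537 ± 0.12 CPM in cumulus cells (log2 difference 8.04, adjusted p = 1.04e-08), with 2 counts over all pools. Areg was too low to be tested, Ereg was at 0.36 ± 0.617 CPM in oocytes and 3.06 ± 1.93 CPM in cumulus cells (log2 difference -2.97) and Btc at 1.04 against 8.82 CPM (log2 difference -3.13). Egfr, their receptor, was at 20.5, 38.4, 21.8, 18.9 and 24.6 CPM in the sets and 2.88, 2.68, 6.58, 7.21 and 5.67 CPM in the pools (log2 difference 2.31, SE 0.33, adjusted p = 1.44e-05), higher on the oocyte side, and its log2 difference was 1.72 without the 4 oocytes that stood apart. Adam17, the protease that frees these ligands, was at 308 ± 58.5 CPM in oocytes and 103 ± 18.9 CPM in cumulus cells (log2 difference 1.58).

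The genes of cumulus expansion were higher in cumulus cells, with exceptions. Of 18 tested, 15 were lower in oocytes and 3 higher (median log2 difference -3.77). Tnfaip6, whose product links hyaluronan to other matrix chains, was at 18.48, 7.74, 19.5, 9.74 and 10.6 CPM in the sets and 178, 127, 259, 116 and 219.5 CPM in the pools (log2 difference -3.77, SE 0.34, adjusted p = 1.38e-07). Ptgs2, the prostaglandin synthase, was at 18.8 ± 11.2 CPM in oocytes and 182 ± 121 CPM in cumulus cells, Vcan, the proteoglycan versican, at 9.76 ± 8.27 CPM in oocytes and 274 ± 81.8 CPM in cumulus cells, and Ptx3, which organises the hyaluronan matrix, at 1.7 ± 2.11 CPM in oocytes and 19.2 ± 6.76 CPM in cumulus cells. Sdc4, a syndecan, and Adamts1, a protease that cleaves versican, showed the widest differences of the list (log2 differences -7.65 and -7.61). Itga6, Ptger4 and Adamts4 were higher in oocytes: the integrin gene Itga6 was at 130.3 ± 5.3 CPM in oocytes and 4.11 ± 0.77 CPM in cumulus cells (log2 difference 4.99) and the prostaglandin receptor gene Ptger4 at 19.2 against 1.16 CPM. Has2, the hyaluronan synthase that defines expansion, was not testable.

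Of 17 genes for granulosa identity and hormones, 11 were lower in oocytes, 4 higher and 2 did not pass (median log2 difference -4.20). Inha, the inhibin alpha subunit, was at 12.6, 3.79, 15.2, 21.5 and 8.89 CPM in the sets and 607, 702, 1451, 934 and 1048 CPM in the pools (log2 difference -6.26, SE 0.48, adjusted p = 2.88e-08). Inhba was at 2.8, 1.58, 10.6, 4.36 and 6.59 CPM in the sets and 104, 98.9, 96.8, 195 and 123.5 CPM in the pools (log2 difference -4.60, SE 0.47, adjusted p = 4.92e-07), with pool 4 well above the rest. Fst, which binds activin, was at 5.92 ± 2.76 CPM in oocytes and 235 ± 189 CPM in cumulus cells, and Foxl2, which keeps granulosa identity, at 0.0695 ± 0.0759 CPM in oocytes and 2.06 ± 1.46 CPM in cumulus cells. The receptor genes were low: Fshr was at 0.348 ± 0.377 CPM in oocytes and 5.96 ± 2.33 CPM in cumulus cells and Lhcgr at 0.278 ± 0.364 CPM in oocytes and 5.92 ± 6.96 CPM in cumulus cells (log2 differences -4.20 and -4.27). The exceptions were Cyp19a1, the aromatase that makes estradiol, at 58.1, 69.8, 62.3, 53 and 50.2 CPM in the sets and 0.32, 1.49, 2.42, 0.901 and 1.53 CPM in the pools (log2 difference 5.43, SE 0.36, adjusted p = 6.51e-09), and the estrogen receptor gene Esr2, at 144 ± 36.6 CPM in oocytes and 5.14 ± 2.56 CPM in cumulus cells (log2 difference 4.80). The amine transporter gene Slc18a2 and Gata4, at 67.2 against 31.1 CPM, were the other 2 higher in oocytes, and Gata4 went to -0.10 (log2) under upper quartile scaling.

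The steroidogenesis genes were mostly higher in cumulus cells. Of 17 tested, 12 were lower in oocytes and 5 higher (median log2 difference -3.91), and their summed level was 19076 to 25476 CPM in the pools against 711 to 1069 CPM in the sets. Hsd3b1, which makes progesterone from pregnenolone, was at 49.995, 25.3, 54.1, 54.4 and 119 CPM in the sets and 10734, 10828, 8529, 6641 and 8815 CPM in the pools (log2 difference -7.23, SE 0.49, adjusted p = 7.95e-09). Cyp11a1, the side-chain cleavage enzyme that starts steroid synthesis, was at 55.2, 26.3, 2.91, 33.4 and 158 CPM in the sets and 3922, 4139, 4728, 8610.2 and 10175 CPM in the pools (log2 difference -6.84, SE 0.89, adjusted p = 5.66e-06). Star, which carries cholesterol into mitochondria, was less abundant, at 5.07 ± 2.11 CPM in oocytes and 87.4 ± 41.2 CPM in cumulus cells, and Scarb1, the receptor that takes up lipoprotein cholesterol, was at 63.6 ± 14.2 CPM in oocytes and 1287 ± 185 CPM in cumulus cells. Akr1c18, which inactivates progesterone, was at 20.1 ± 18.7 CPM in oocytes and 2141 ± 602 CPM in cumulus cells (log2 difference -6.73). The genes higher in oocytes included the lysosomal cholesterol transporter Npc1, at 179 against 8.84 CPM, and the sterol carriers Stard5, at 47.5 against 2.09 CPM, and Stard4, at 33.1 against 8.27 CPM. Cyp17a1, which marks theca cells, was too low to be tested.

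**Figure D3:**
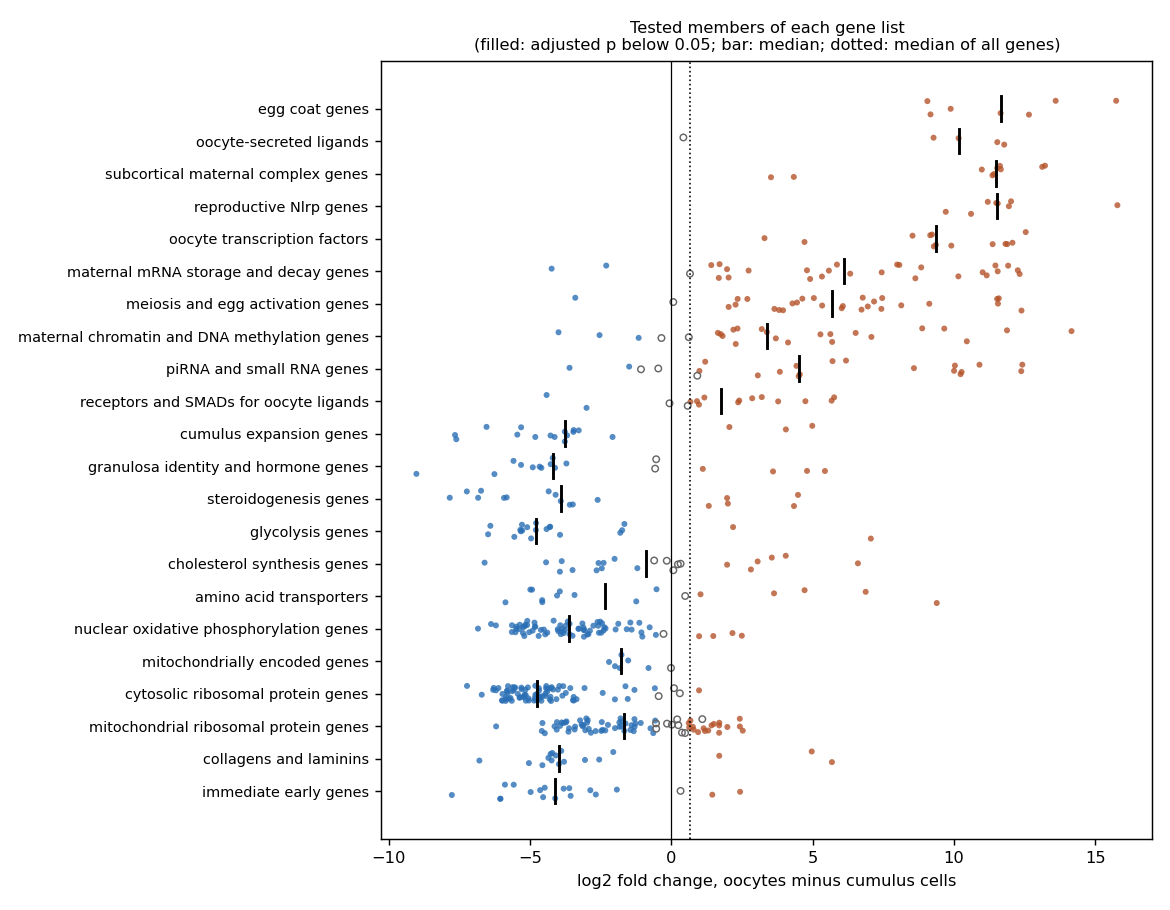
Log2 difference between oocytes and cumulus cells (horizontal axis, positive is higher in oocytes) for the tested members of 22 gene groups (rows), 1 point a gene, filled where the adjusted p is below 0.05, with a bar at the group median and a dotted line at the median of all genes, 0.68. The egg coat, Nlrp and subcortical complex groups lie furthest to the right, and the glycolysis and cytosolic ribosomal protein groups furthest to the left.

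The genes of glycolysis were lower in oocytes, with 2 exceptions. Of 20 genes tested, 18 were lower in oocytes and 2 higher (median log2 difference -4.79, and -5.33 relative to genes of like exon length). Pkm, pyruvate kinase, was at 77.9 ± 19.8 CPM in oocytes and 3034 ± 459.7 CPM in cumulus cells, and Pfkp, the platelet phosphofructokinase, at 6.44, 7.88, 8.72, 7.96 and 13 CPM in the sets and 203, 163, 244, 230.0 and 379.9 CPM in the pools (log2 difference -4.79, SE 0.30, adjusted p = 4.08e-09). Aldoa, aldolase, was at 135 ± 37.1 CPM in oocytes and 5421 ± 660.2 CPM in cumulus cells, and Eno1, enolase, had the largest difference of the list (log2 -6.48). The glucose transporter gene Slc2a1 differed less, at 33.3 ± 5.82 CPM in oocytes and 116 ± 48.6 CPM in cumulus cells (log2 difference -1.81). The 2 members higher in oocytes were the monocarboxylate transporter gene Slc16a1, at 46.3 ± 6.67 CPM in oocytes and 10.2 ± 6.04 CPM in cumulus cells (log2 difference 2.18), and Ldhb. The 2 lactate dehydrogenase genes ran in opposite directions. Ldhb, the heart-type subunit, was at 1338, 943, 1183, 967 and 1057 CPM in the sets and 5.76, 7.29, 12.1, 7.96 and 7.97 CPM in the pools (log2 difference 7.06, SE 0.30, adjusted p = 2.93e-10). Ldha, the muscle-type subunit, was at 52.6, 15.1, 56.8, 62.5 and 129 CPM in the sets and 4670.5, 4607, 5441, 5140.0 and 6851 CPM in the pools (log2 difference -6.40, SE 0.53, adjusted p = 6.12e-08). Per kilobase of exon, Ldhb was at 699 and Ldha at 19.1 in oocytes, against 5.23 and 1614 in cumulus cells. Between the 2 genes these values are approximate, since exon length can differ from transcript length.

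The promoters of this gene pair are shown for the opposite directions of the 2 subunits (RefSeq, GRCm38.p6, same window), Ldhb at chr6:142507908-142508207, minus strand, and Ldha at chr7:46845554-46845853, plus strand, the first of the starts listed for it. Capitals mark GGGCGG and TGACGTCA, the cAMP response element, on either strand.
Ldhb: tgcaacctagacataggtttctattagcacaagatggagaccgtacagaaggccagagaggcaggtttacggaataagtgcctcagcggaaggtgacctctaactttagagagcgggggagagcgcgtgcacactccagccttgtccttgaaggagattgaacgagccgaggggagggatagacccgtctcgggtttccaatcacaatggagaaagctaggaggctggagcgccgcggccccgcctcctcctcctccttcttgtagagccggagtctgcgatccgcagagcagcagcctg
Ldha: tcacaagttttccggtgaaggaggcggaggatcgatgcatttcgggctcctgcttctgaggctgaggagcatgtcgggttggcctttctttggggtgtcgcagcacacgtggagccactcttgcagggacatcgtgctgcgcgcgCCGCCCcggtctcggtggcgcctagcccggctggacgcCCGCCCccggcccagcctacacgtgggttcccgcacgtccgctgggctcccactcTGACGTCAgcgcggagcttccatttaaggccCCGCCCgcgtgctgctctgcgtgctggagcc
Ldha had 3 GC boxes and a cAMP response element 12 bases before the start, and Ldhb had neither motif. The full cAMP element was in 1.79% of all promoters, in 3.41% of those of genes higher in oocytes and in 3.47% of those of genes lower in oocytes.

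Cholesterol synthesis genes went both ways. Of 22 tested genes, 11 were lower in oocytes, 6 higher and 5 did not pass (median log2 difference -0.90). Fdps, farnesyl diphosphate synthase, was at 18.8, 8.88, 28.8, 31.7 and 32.9 CPM in the sets and 1985, 2028, 2921, 2204 and 2645 CPM in the pools (log2 difference -6.61, SE 0.41, adjusted p = 3.95e-09), and Mvk, mevalonate kinase, and Dhcr7, which completes cholesterol, were also lower in oocytes (log2 differences -4.43 and -3.94). Cyp51, the lanosterol demethylase, was at 7.28, 3.92, 7.66, 4.56 and 5.84 CPM in the sets and 12.2, 16.8, 51.3, 21.3 and 15.6 CPM in the pools (log2 difference -2.01, SE 0.38, adjusted p = 0.000219), with pool 3 above the other pools. Insig1, which restrains the sterol-sensing pathway, was at 817 ± 126 CPM in oocytes and 8.4 ± 3.13 CPM in cumulus cells (log2 difference 6.60). Idi1, which makes the isoprene unit, and Fdft1, squalene synthase, were higher in oocytes too, at 37.9 against 2.25 CPM and 199 against 16.9 CPM.

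The amino acid transporters were mostly cumulus-high. Of 16 tested, 10 were lower in oocytes, 5 higher and 1 did not pass (median log2 difference -2.33). Slc38a3, which brings alanine and other neutral amino acids into cumulus cells, was at 0.0983, 0, 0, 0 and 1.29 CPM in the sets and 6.88, 10.6, 8.86, 11.4 and 11.3 CPM in the pools (log2 difference -4.99, SE 0.96, adjusted p = 0.00023), and Slc7a8 was at 16.4 ± 8.4 CPM in oocytes and 956 ± 253 CPM in cumulus cells. The oocyte had the glycine transporter gene Slc6a9, at 104, 114, 177, 157 and 111 CPM in the sets and 4.8, 12.1, 8.19, 13.1 and 15.3 CPM in the pools (log2 difference 3.63, SE 0.31, adjusted p = 8.9e-08), the cystine transporter gene Slc7a11 at 191 ± 15.1 CPM in oocytes and 1.63 ± 0.715 CPM in cumulus cells (log2 difference 6.88), and Slc6a20a at 44.4 ± 9.05 CPM with 2 counts over all pools.

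In counts of polyadenylated RNA, genes of the respiratory chain and of the ribosome were lower in oocytes almost throughout. Of 76 nuclear genes for oxidative phosphorylation, 71 were lower in oocytes, 4 higher and 1 did not pass (median log2 difference -3.63), and they took 0.138 ± 0.00933% of the counts in oocytes and 1.07 ± 0.0708% in cumulus cells (exact permutation test, adjusted p = 0.00907). Cox4i1, a subunit of cytochrome c oxidase, was at 4.52, 4.68, 6.52, 6.85 and 10.2 CPM in the sets and 1357, 1579, 294, 248 and 280.3 CPM in the pools (log2 difference -6.84, SE 0.66, adjusted p = 3.01e-07), and pools 1 and 2 stood above pools 3 to 5. The 4 genes higher in oocytes were Uqcrc2, a core subunit of complex III, at 226 ± 37.8 CPM in oocytes and 40.1 ± 12 CPM in cumulus cells, Ndufa10, Sdha and Ndufab1 (log2 differences 2.49, 2.16, 1.48 and 0.98), of which Ndufab1 changed sign under upper quartile scaling. Of the 13 mitochondrially encoded genes, 7 were tested, 6 were lower in oocytes and 1 did not pass (median log2 difference -1.76). COX1, which encodes the catalytic subunit of cytochrome c oxidase, was at 2979, 2448, 1228, 1135 and 2824 CPM in the sets and 9800.1, 10476, 7912, 9199.8 and 11502 CPM in the pools (log2 difference -2.20, SE 0.35, adjusted p = 4.19e-05), and no pool overlapped a set. The 6 that were not tested had next to no counts in either cell. COX2 had 6 counts over the sets and 4 over the pools, against 353925 and 326888 for COX1. Whether reads of these 6 genes were lost in alignment or counting was not tested. The mitochondrial share, which rests almost wholly on the 7 tested genes, was 0.447 ± 0.148% against 2.99 ± 0.546% of all counts (adjusted p = 0.00907, exact permutation test).

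Of 85 cytosolic ribosomal protein genes, 81 were lower in oocytes, 1 higher and 3 did not pass (median log2 difference -4.75). They took 0.061 ± 0.0116% of the counts in oocytes and 2 ± 0.326% in cumulus cells (adjusted p = 0.00907, exact permutation test), so each pool held more than any set. Rps27, of the small subunit, was at 1.57, 0.688, 1.84, 2.87 and 6.05 CPM in the sets and 291, 313, 453, 458 and 463 CPM in the pools (log2 difference -7.23, SE 0.54, adjusted p = 2.32e-08). Rps19, also of the small subunit, was lower by a similar amount (log2 difference -6.71). The exception was Rpl22, of the large subunit, at 26.8 ± 2.86 CPM in oocytes and 13.5 ± 4.64 CPM in cumulus cells (log2 difference 0.98), which changed sign under upper quartile scaling. The mitochondrial ribosomal protein genes were less uniform: of 77, 50 were lower in oocytes, 18 higher and 9 did not pass (median log2 difference -1.66), from Mrpl33, a large-subunit gene, at -6.20 to Mrpl3 at 2.53. Ribosomal protein transcripts are short, and short genes were lower in oocytes in general. The median log2 difference rose from -1.39 for exon lengths below 1 kb to 1.57 above 8 kb. Within the same exon lengths, the ribosomal protein genes had medians of -4.49 against -1.22 for other genes below 1 kb, -5.22 against -0.50 at 1 to 2 kb, and -4.50 against 0.09 at 2 to 4 kb. By this length, 14 ribosomal protein genes were below 1 kb, 35 at 1 to 2 kb and 30 at 2 to 4 kb. The exon length of a gene can differ from the length of the transcript sequenced, so transcript length was not matched.

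The number of genes detected depended on how the oocytes were counted. At an equal total, 15135 ± 634 genes were detected in the oocyte sets and 14794 ± 630.0 in the pools (SD, n = 5 each), with overlapping groups (exact two-sided permutation test, adjusted p = 0.365). Taken per single oocyte at 839781 counts and averaged within a set, 10434 to 11102 genes were detected in oocytes and 11903 to 13267 in the pools at that same total, so the order turned.

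**Figure D4:**
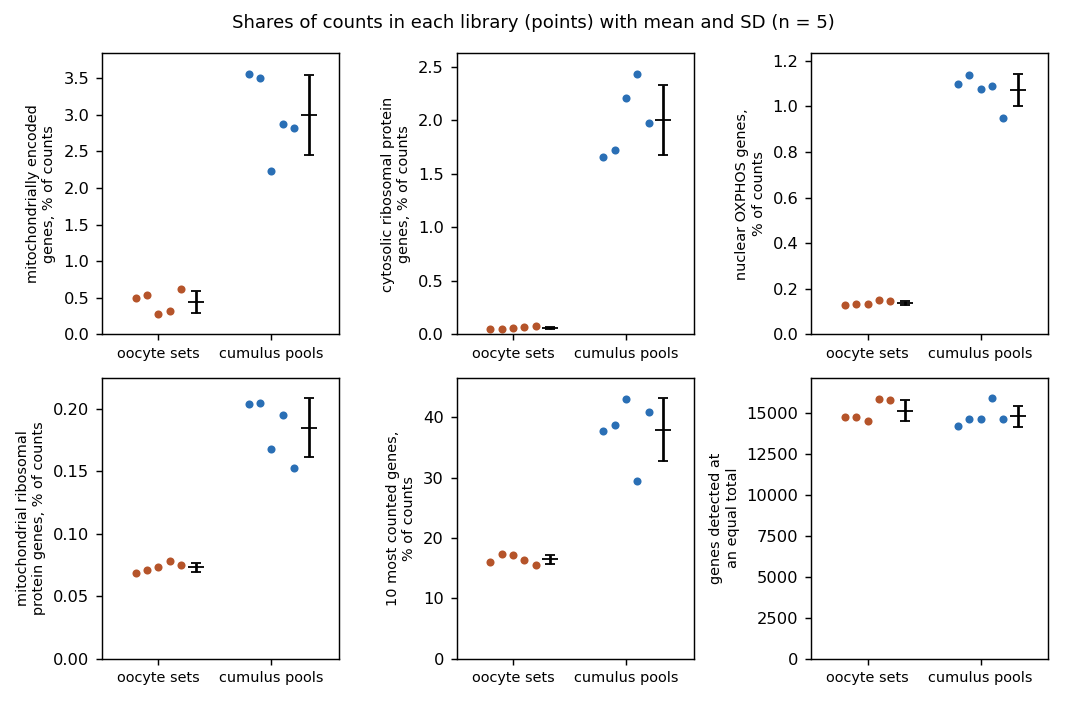
Shares of all counts (percent) taken by 4 gene classes and by the 10 most counted genes, and the genes detected at an equal total (last panel), in each of the 5 oocyte sets (red-brown) and 5 cumulus pools (blue), with mean and SD (n = 5). The pools lie above the sets in each of the 5 shares, while the genes detected overlap (15135 ± 634 in the sets and 14794 ± 630.0 in the pools).

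The stores of the egg cytoplasm were higher in oocytes member by member. All 10 tested genes of the subcortical maternal complex and its partners were higher in oocytes (median log2 difference 11.47, or 11.17 with the 2 members that had no pool count at their bound). Nlrp5, whose loss stops embryos at the first cleavages, was at 185, 180.3, 153, 228 and 230.3 CPM in the sets with 2 counts over all pools, a ratio of 3387 (95% counting interval 937 to 27966). Padi6 was at 1103 ± 395 CPM in oocytes and 0.403 ± 0.431 CPM in cumulus cells and Ooep at 1326 ± 423 CPM in oocytes and 0.488 ± 0.799 CPM in cumulus cells. Tle6 and Khdc3 had pool levels further from 0, at 162 against 8.02 CPM and 20.7 against 1.82 CPM (log2 differences 4.33 and 3.53). All 8 tested reproductive Nlrp genes were higher too (median log2 difference 11.52): Nlrp14 was at 3308 ± 597 CPM in oocytes and 1.15 ± 1.95 CPM in cumulus cells, and Nlrp4e, at 372 ± 63.1 CPM in oocytes, had no count in the pools and was at least 4116-fold higher. The Nlrp4 and Nlrp9 genes are near copies of each other, so their single values are uncertain.

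Of 28 genes for storing and clearing maternal mRNA, 25 were higher in oocytes, 2 lower and 1 did not pass (median log2 difference 6.09). Btg4, the adaptor that brings the deadenylase to maternal mRNAs, was at 9648, 9844, 9438, 9531 and 8089 CPM in the sets and 0, 0, 3.76, 4.81 and 3.37 CPM in the pools (log2 difference 11.91, SE 0.96, adjusted p = 4.44e-08). Zar1, which gathers stored mRNA, was at 3018 ± 652 CPM in oocytes and 0.557 ± 0.78 CPM in cumulus cells, Cpeb1, which controls poly(A) tails, at 381 ± 61.9 CPM in oocytes and 0.331 ± 0.279 CPM in cumulus cells, and Dazl, a translational activator, at 1731 ± 290.2 CPM in oocytes and 0.827 ± 0.888 CPM in cumulus cells. Cnot6l, a deadenylase subunit, was at 267 ± 41.4 CPM in oocytes and 6.63 ± 1.81 CPM in cumulus cells. Zfp36l2, an mRNA decay factor needed in the oocyte, was lower in these ovulated oocytes, at 1.27 against 6.35 CPM (log2 difference -2.30).

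Of 28 genes for meiosis and egg activation, 26 were higher in oocytes, 1 was lower and 1 did not pass (median log2 difference 5.68). Mos, the kinase that keeps the egg at metaphase, was at 1897, 1457, 1406, 1778 and 1007 CPM in the sets and 0, 0, 0.537, 0.751 and 1.23 CPM in the pools (log2 difference 11.53, SE 0.63, adjusted p = 1.29e-09). Fbxo43, which inhibits the anaphase-promoting complex, was at 671 ± 71.7 CPM in oocytes and 0.114 ± 0.156 CPM in cumulus cells, Wee2 at 1358 ± 224 CPM in oocytes and 0.441 ± 0.423 CPM in cumulus cells, and Ccnb1, cyclin B1, at 6733 ± 1173 CPM in oocytes and 24 ± 4.92 CPM in cumulus cells. The exception was Cdk1, the kinase that cyclin B1 activates, at 0.934, 1.41, 1.49, 1.29 and 1.02 CPM in the sets and 12.8, 10.7, 13.7, 11.1 and 16.1 CPM in the pools (log2 difference -3.40, SE 0.27, adjusted p = 4.55e-08). The sets and pools did not overlap for Cdk1, which was the only member lower in oocytes.

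The egg surface genes were mixed. Of 9 tested, 5 were higher in oocytes, 2 lower and 2 did not pass (median log2 difference 0.57, which changed sign with the setting). Astl, the cortical granule protease that cleaves Zp2, was at 651 ± 112 CPM in oocytes and 0.29 ± 0.289 CPM in cumulus cells. Cd9 and Cd81, tetraspanins of which the first is needed on the egg for fusion with sperm, were the 2 lower ones: Cd9 was at 5.11, 5.78, 7.23, 4.97 and 5.89 CPM in the sets and 145, 124, 136, 64.3 and 70.3 CPM in the pools (log2 difference -4.22, SE 0.29, adjusted p = 8.21e-09), and Cd81 at 11.9 ± 5.22 CPM in oocytes and 479 ± 96.4 CPM in cumulus cells (log2 difference -5.33).

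In the nucleus, all 13 oocyte transcription factors tested were higher in oocytes (median log2 difference 9.36, 9.16 with the 4 that had no pool count at their bound). Nobox, which directs oocyte growth, was at 63, 92.3, 79, 88.9 and 69.2 CPM in the sets and 0, 0.149, 0, 0.3 and 0.153 CPM in the pools (log2 difference 9.29, SE 0.42, adjusted p = 3.65e-10), and Lhx8 was at 39.3 ± 12 CPM with no pool count (at least 429-fold). Figla, which turns on the zona genes in young follicles, was low in these ovulated oocytes, at 2.44 ± 0.59 CPM. The homeobox genes Obox1, Obox2 and Obox5 were at 13534 ± 1959.8, 17157 ± 3160.4 and 19066 ± 3007 CPM in oocytes. Of 25 genes for chromatin and DNA methylation, 20 were higher, 3 lower and 2 did not pass (median log2 difference 3.38). Dppa3, which protects maternal methylation, was at 1877 ± 217 CPM in oocytes and 1.36 ± 1.58 CPM in cumulus cells, Tet3, which oxidises methylcytosine, at 1568 ± 277 CPM in oocytes and 17.1 ± 1.43 CPM in cumulus cells, Uhrf1, which recruits the maintenance methyltransferase, at 1321 ± 143 CPM in oocytes and 2.81 ± 0.786 CPM in cumulus cells, and that enzyme's gene Dnmt1 at 665 ± 122 CPM in oocytes and 17.2 ± 1.9 CPM in cumulus cells. Npm2, the nucleoplasmin, was at 121 ± 18.8 CPM with no pool count (at least 1314-fold). Ehmt2, Kdm5b and Tet2 were lower in oocytes (log2 differences -3.99, -2.54 and -1.16).

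Of 22 genes of the piRNA and small RNA pathways, 17 were higher in oocytes, 2 lower and 3 did not pass (median log2 difference 4.52). Dicer1, which makes the endogenous small interfering RNAs of the mouse oocyte, was at 316, 313, 335, 318 and 247 CPM in the sets and 4.32, 4.02, 3.36, 5.41 and 3.98 CPM in the pools (log2 difference 6.18, SE 0.23, adjusted p = 2.43e-10). Piwil1 was at 69.3 ± 14.2 CPM with 2 counts over all pools, and Ago2, the slicing Argonaute, at 24.5 ± 6.12 CPM in oocytes and 10.7 ± 5.32 CPM in cumulus cells. Ago1 and Ago4 were lower in oocytes (log2 differences -3.60 and -1.49).

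All 22 other oocyte-restricted genes that were tested were higher in oocytes (median log2 difference 11.79), and their summed level was 143673 to 176037 CPM in the sets against 187 to 254 CPM in the pools, most of which came from Spin1 (179 ± 58 CPM). Many of these genes lie in clusters of near copies, among which reads may be shared, so that the level of a single copy is uncertain. The 6 genes Tcl1 and Tcl1b1 to Tcl1b5 lie on chromosome 12 from 105147019 to 105222737 (GRCm38, RefSeq). Their means ran from 829 CPM for Tcl1b5 to 13317 CPM for Tcl1 in oocytes, and each had a mean below 4 CPM over the pools. The 3 Oas1 genes Oas1c, Oas1d and Oas1e lie on chromosome 5 from 120786312 to 120921648, at 1371, 15736 and 7471 CPM. Bcl2l10, an anti-apoptotic factor, was at 9541 ± 903 CPM in oocytes and 1.83 ± 1.67 CPM in cumulus cells.

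The naming rule took genes that differed by more than 2-fold, did not overlap and reached 100 CPM in the higher group, leaving out predicted genes, Rik clones and pseudogenes by their names. Of 1562 such genes higher in oocytes, the 10 largest differences belonged to Fbxw27, C87414, Nlrp4e, Umodl1, Tbx4, Rapgef5, Fbxw25, AA619741, Trim75 and Mbl2. All but Trim75 had no count in any pool. Fbxw27, an F-box gene, was at 434, 493, 679, 459 and 431 CPM in the sets and was at least 5286-fold higher. It lies with Fbxw15, Fbxw24 and Fbxw25 on chromosome 9, from 109552602 to 109790660. Tbx4, a T-box factor known from limb growth, was at 192, 302, 227, 208 and 190.3 CPM in the sets (at least 2451-fold), and Mbl2, a secreted lectin known from the liver, at 107, 118, 141, 165 and 111 CPM (at least 1411-fold). Of 505 such genes higher in cumulus cells, the 10 largest differences belonged to Lyz2, H2-Q4, Olfr1033, Slc39a1, Serpinh1, Sdc4, Sfrp2, Hsd3b1, Rps27 and Trf. Lyz2, lysozyme, was at 719, 1576, 81.2, 1343 and 48.3 CPM in the pools and 1.13, 0.826, 0.284, 0.497 and 0.295 CPM in the sets (log2 difference -10.21, SE 1.11, adjusted p = 9.36e-07). Sfrp2, a secreted inhibitor of Wnt signalling, was at 1223, 1128, 78.8, 191 and 596 CPM in the pools, and Trf, transferrin, at 309, 342, 688, 438 and 815 CPM. Over all tested genes, the median SD of log2 CPM was 0.36 between the sets and 0.53 between the pools. Each set is a sum of 5 to 8 oocytes and held more counts than any pool. The 2 SDs were therefore not measured alike and do not show which cell type varies more.

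Single oocytes allow the sets to be checked cell by cell. Outside the 4 that stood apart, Gdf9 had a median of 16567 CPM over 32 oocytes, Bmp15 was at 2602 to 5278 CPM and Btg4 at 5298 to 8067 CPM. Others ranged more widely: Mos was at 520.1 to 1864 CPM and Zar1 at 1171 to 3776 CPM, and Zar1 in set 3, at 1171 to 1515 CPM, lay below all the rest of these 32. Ddx4, the germ cell RNA helicase, divided the sets. Its lowest, median and highest values were 16.9, 31 and 47.6 CPM in the 8 oocytes of set 1, and 277, 307 and 393 CPM in 7 oocytes of set 4. Sets 2 and 3 were like set 1 (16.3 to 44.1 CPM), and set 5 was like set 4 (238 to 359.6 CPM). Aurkc, the germ cell Aurora kinase, was the reverse: it was at 172 to 269 CPM in the oocytes of sets 1 to 3 and at 39.6 to 67.5 CPM in those of sets 4 and 5, so that for both genes no oocyte of sets 1 to 3 overlapped one of sets 4 and 5. Dazl did not show this split, with set medians from 1096 to 1443 CPM. The split was noticed after the values were seen, and was not tested. The cumulus genes had wide ranges: Cyp11a1 ran from 0.532 to 590.4 CPM and Ldha from 0 to 360.4 CPM over the 32 oocytes.

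**Figure D5:**
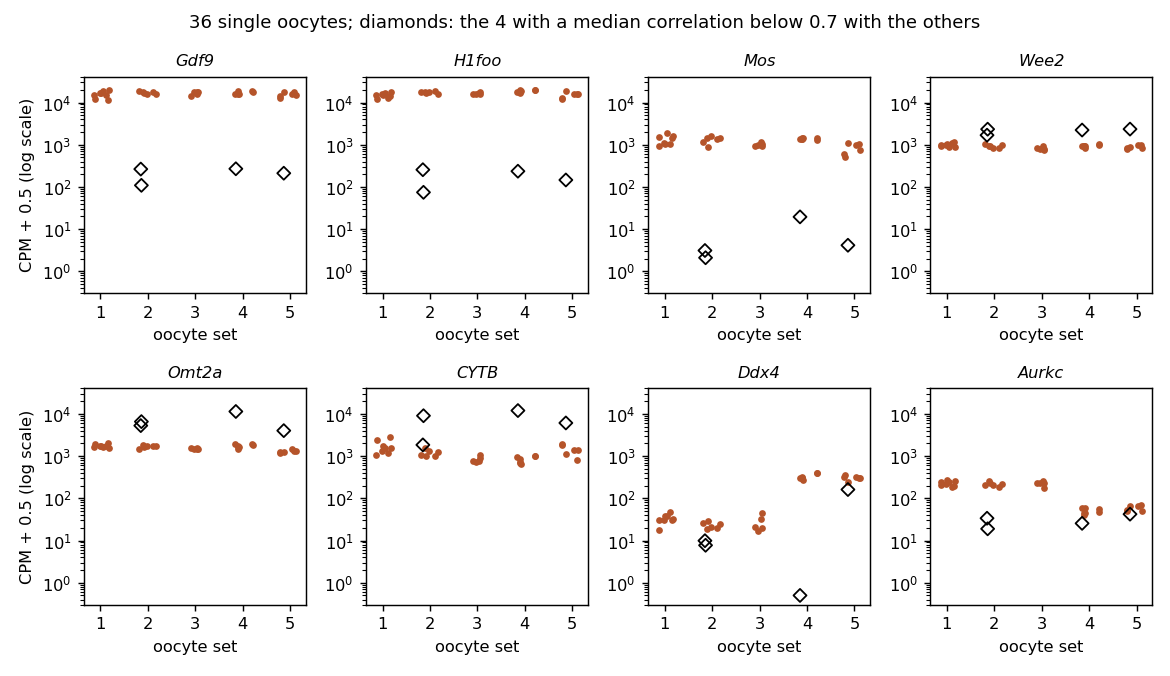
Level of 8 genes in each of the 36 single oocytes (CPM of the plain total + 0.5, log axis) by oocyte set, with the 4 oocytes that stood apart drawn as open diamonds. Ddx4 is higher and Aurkc lower in the filled points of sets 4 and 5 than in those of sets 1 to 3, and Gdf9 is at 109 to 269 CPM in the diamonds and at 11362 CPM or more elsewhere.

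Each cell type held traces of the other's genes. Of the 42 oocyte list genes at 1000 CPM or more in oocytes, the median gene reached 0% of its oocyte level in cumulus pools 1 and 2 and 0.0721 to 0.12% in pools 3 to 5. Of 18 cumulus list genes at that level in cumulus cells, the median gene reached 0.237 to 1.48% of its cumulus level in the oocyte sets. For low values on the wrong side, such as Gja1 or Cyp11a1 in oocytes, RNA carried over from the other cell cannot be told apart from expression.

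Other groups were read against the same background. Of 3 tested genes of X inactivation, 2 were lower in oocytes and 1 higher. Xist, the RNA that coats the inactive X, was at 2.11, 0.413, 1.13, 0.995 and 4.98 CPM in the sets and 43.7, 56.6, 26.6, 34.5 and 49.8 CPM in the pools (log2 difference -4.42, SE 0.55, adjusted p = 3.69e-06), with an overlapping antisense gene that cannot be told apart without strand. The 411 X-linked genes tested had a median log2 difference of 0.79, and the other genes with a position 0.65. Of 22 genes of insulin and IGF signalling, 10 were higher and 10 lower (median log2 difference 0.04, which changed sign with the setting): Foxo1, a target of that pathway, was at 493 ± 61.2 CPM in oocytes and 39.1 ± 12.4 CPM in cumulus cells and the binding protein gene Igfbp4 at 2.6 ± 2.38 CPM in oocytes and 118 ± 70.3 CPM in cumulus cells. Of 17 collagen and laminin genes, 14 were lower in oocytes and 3 higher (median log2 difference -3.98). Sparc, which binds collagen, was at 11.7 ± 9.54 CPM in oocytes and 1301 ± 457 CPM in cumulus cells, and Fn1, fibronectin, at 11.2 ± 5.55 CPM in oocytes and 206 ± 170.1 CPM in cumulus cells, while Lamb1, a laminin chain, was at 1870.5, 1567, 1582, 2043 and 1295 CPM in the sets and 12.2, 14.3, 38.4, 38.9 and 59 CPM in the pools (log2 difference 5.68, SE 0.46, adjusted p = 4.96e-08). Of 19 immediate early genes, which answer hormone signals and also handling, 16 were lower in oocytes and 2 higher (median log2 difference -4.11): Junb was at 2.99 ± 2.56 CPM in oocytes and 178 ± 84.8 CPM in cumulus cells and Dusp1, a phosphatase, at 338 ± 83 CPM in oocytes and 62.5 ± 18.7 CPM in cumulus cells. Of 5 replication-dependent histone genes tested of 69, 2 were higher and 2 lower (median log2 difference 0.19, which changed sign with the setting). These RNAs lack poly(A) tails for the most part, and the libraries were made from polyadenylated RNA.

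Markers of other cells were looked at because a pool of cumulus cells can hold blood or stroma. Of 10 immune markers tested, 9 were lower in oocytes and 0 higher. Their summed level was 84.7 to 1902 CPM in the pools and 8.3 to 31.9 CPM in the sets, and Lyz2 had the highest mean of them in the pools. Cd74, of antigen presentation, was at 111, 192, 60.0, 105 and 15.2 CPM in the pools, with Ptprc, the leukocyte surface marker, at 0.263 ± 0.557 CPM in oocytes and 3.13 ± 2.36 CPM in cumulus cells. The summed immune markers averaged 1407 CPM in pools 1 and 2 and 619 CPM in pools 3 to 5. Pools 3 to 5 were not alike, since Lyz2 was high in pool 4 and low in pools 3 and 5. Spp1, which macrophages also make, was at 167523 and 179559 CPM in pools 1 and 2. In pools 3 to 5 Spp1 ran from 86983 CPM in pool 4 to 269007 CPM in pool 3. The part of immune cells in its level was not tested. The leukocyte markers left out by the filter on low counts differed in their counts over the 5 pools. Cd3e had 1 count, S100a9 had 10 and S100a8 had 20, while Adgre1 had 94, Cd79a had 179 and Itgam had 224. Of 5 endothelial markers tested, 4 were higher in oocytes, among them Pecam1 at 49.1 ± 8.06 CPM in oocytes and 1.15 ± 0.452 CPM in cumulus cells and Kdr at 9.2 ± 3.63 CPM with no pool count, while Cdh5, VE-cadherin, was at 0.211 ± 0.1 CPM in oocytes and 6.52 ± 3.58 CPM in cumulus cells. Of 4 erythroid markers, 1 was higher and 1 lower, and their summed level averaged 245 CPM in pools 1 and 2 and 28.1 CPM in pools 3 to 5. Of 4 theca and stroma markers, 1 was higher and 2 lower, and their smooth muscle genes went both ways, with Myh11 at 53.7 ± 11.5 CPM in oocytes and 0.215 ± 0.253 CPM in cumulus cells (log2 difference 7.96) and Acta2 at 0.415 ± 0.499 CPM in oocytes and 12.4 ± 8.45 CPM in cumulus cells (log2 difference -4.78). Of 3 oviduct and epithelium markers, 2 were lower, namely the keratin genes Krt8, at 2.55 ± 1.46 CPM in oocytes and 94 ± 55.4 CPM in cumulus cells, and Krt18. None of the 8 sperm and male markers reached the level needed for a test (summed level up to 0.709 CPM).

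Whether the contrast of the 2 cells differed by conception was asked with an interaction term over the Natural and IVF libraries. No Natural oocyte name shares its first number with an IVF oocyte name. What this number stands for is not given in the sources used here, so in oocytes conception cannot be told apart from it. Of 14719 genes, 3 (0.0204%) had a positive interaction at an adjusted p below 0.05, which means a log2 difference (oocyte minus cumulus) shifted towards the oocyte in IVF, 0 had a negative one, and 857 had an unadjusted p below 0.05. By DESeq2, 4 genes had a positive and 5 a negative interaction. The sign does not say whether the gap between the cells widened or narrowed. Dbt, a subunit of the enzyme that breaks down branched-chain amino acids, was at 8.25 ± 0.829 CPM in Natural and 104 ± 62 CPM in IVF oocytes, and 10.4 ± 3.39 and 10.6 ± 2.24 CPM in Natural and IVF cumulus cells (SD, n = 5 each; interaction log2 3.63, SE 0.60, adjusted p = 0.029 by edgeR). Tceal8 was at 3.93 ± 2.91 CPM in Natural and 29.6 ± 15.8 CPM in IVF oocytes, and 119 ± 39.5 and 95.3 ± 13.2 CPM in Natural and IVF cumulus cells (interaction log2 3.23), so that its gap in favour of cumulus cells was narrower in IVF. The third was D430041D05Rik (interaction log2 8.43). None of the 3 passed with the library sets as a block, leaving out 1 library at a time left 0 to 3 genes, and 0 of the 708 list genes tested had an adjusted p below 0.05, with 40 at an unadjusted p below 0.05. On simulated counts this design recovered 55% of genes with an interaction of log2 2 and 92% of those with log2 4, so smaller interactions could be missed.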

How the data were processed

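RNA was sequenced from single oocytes and pooled cumulus cells. The authors deposited raw gene counts, made from polyadenylated RNA with a modified SMART-Seq protocol and Nextera XT libraries. Per the labels, reads were trimmed with Trimmomatic 0.32, aligned to mm10 with STAR 2.3.0e and counted with featureCounts 1.5.0, and the labels also name DESeq2. The study's methods name trimgalore for the trimming. Most of the deposited counts are even numbers, so both mates of a pair may each have been counted, and counting intervals are then too narrow. Floors and intervals cover counting error only.

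Single-oocyte counts were summed by library set, and 5 sets were compared with 5 cumulus pools in edgeR 4.0.16 (R 4.3.3; TMM scaling, filterByExpr with a minimum count of 10, glmQLFit and glmQLFTest, Benjamini-Hochberg adjustment, threshold 0.05), with glmTreat at a log2 difference of 1 as a second rule. A positive log2 difference is higher in oocytes. The interaction with conception was fitted over Natural and IVF libraries. Shares of counts were compared by exact two-sided permutation tests. A gene with no count in 1 group was set against a floor of 3 counts over that group. DESeq2 1.42.0 and limma 3.58.1 (voom) served as alternatives, with other scalings, filters and left-out libraries. On simulated counts the main test recovered 81% of 200 genes changed by log2 2, with 6 false calls. All other genes were left without a difference in that simulation, whereas most genes differed in the real comparison. The simulation therefore does not give the number of false calls in the real comparison. Promoters were read from RefSeq (GRCm38.p6, the build also called mm10).

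The members and the gene lists were chosen with earlier results of these data known. Genes were named where they are core members of a list, where they are among up to 3 largest differences of a list in each direction or run farthest against its side, or where they are among the 10 largest differences in each direction past 2-fold, without overlap and at 100 CPM or more (for the interaction, up to 5 in each direction). Names that start with Gm and a digit, end in Rik or hold -ps were left out of the last 2 choices. Of 188 tested genes given in the text for the comparison of the cells, 154 fell under this rule, and the other 34 were chosen after their values were seen, as was D430041D05Rik. Oosp2 and Cdh2 also fall under this rule and are not among the 188.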

Additional observations from a re-analysis of the deposited data

Results flagged for a closer look

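A sample was set apart where its gap to the nearest other library, divided by the range of its group of 5, was above 0.71, and 6 of 98 groups of 5 met this, where chance gives about 5%. They were the genes detected in cumulus pool 4, at 15874, Zp2 in oocyte set 4, at 127 CPM, Inhba in cumulus pool 4, at 195 CPM, Cyp51 in cumulus pool 3, at 51.3 CPM, Btg4 in oocyte set 5, at 8089 CPM, and Dicer1 in oocyte set 5, at 247 CPM.

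The difference between oocyte and cumulus cells itself differed between the Natural and IVF libraries for 3 genes by edgeR's interaction test. In the oocytes, conception cannot be told apart here from the first number of the library name. The interaction (log2, IVF minus Natural) was 3.63 for Dbt, 3.23 for Tceal8 and 8.43 for D430041D05Rik, each with an adjusted p of 0.029. With the 5 library sets as a block, the adjusted p-values by edgeR were 0.0614, 1 and 0.156. D430041D05Rik was at 0.0688 ± 0.113 CPM in Natural and 10.0 ± 6.93 CPM in IVF oocytes, and at 1.8 ± 1.83 and 0.636 ± 0.642 CPM in Natural and IVF cumulus cells (SD, n = 5 each).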

How the results depend on the processing

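The counts of genes that differed between the cells stayed within 1.5 times under every alternative run, and ranged from 5545 to 6908 higher and 4612 to 4997 lower in oocytes (past 2-fold, 4774 to 6124 and 3985 to 4252) when 1 library was left out at a time, with 16 to 19 lists having a median above 0. Upper quartile scaling gave 4946 higher and 6159 lower, and turned Bmpr2 to -0.014, Gata4 to -0.10, Ndufab1 to -0.19 and Rpl22 to -0.19 (log2), and Ndufab1 was at -0.022 with 36 single oocytes as samples. LOC101056014, which did not pass (-0.28), was at 0.66 by limma-voom and from -0.51 to 0.14 when 1 library was left out. Of 188 named genes, which leave out Oosp2 and Cdh2, 171 kept their direction and side of the threshold in every alternative. The genes detected differed by -1517 (oocyte minus cumulus, exact permutation p = 0.00794) when single-oocyte values were averaged, and by 166 to 611 when 1 library was left out. The cause of these changes was not tested.

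Only 2 cumulus pools share a library set name with oocytes. Their deviations from the group means correlated at 0.0248 and -0.00625, which did not meet the mark set for treating them as pairs, and whether they share a female or a batch is not given in the sources used here. With these 2 sets as a replicate block, 5066 genes were higher and 3496 lower (4349 and 2871 past 2-fold), and 8350 of 11130 calls were kept, with 0 in the other direction.

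For the interaction with conception, DESeq2 found 5 genes with a negative interaction, and the 5 library sets as a replicate block gave 0 genes with a positive and 1 with a negative one. Leaving out 1 library gave 0 to 3 positive and 0 to 2 negative. No gene was positive without oocyte set 1, 2, 3 or 4, cumulus pool 1, 3 or 4, IVF oocyte set 2 or 4, or any 1 IVF cumulus pool, and 1 was without IVF oocyte set 1. The alternative without the 4 oocytes that stood apart was chosen after seeing the data. The totals of 4081172 to 6138018 counts per pool limit what can be read of low genes in cumulus cells.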

Other observations

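Of the 40 IVF oocytes, 6 had a median correlation with the other oocytes below 0.7, as had 4 of the 36 Natural oocytes. The interactions given for Dbt, Tceal8 and D430041D05Rik were fitted with all of these oocytes included. In the Natural oocytes no value lay between 0.579 and 0.908.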
